A study of Drosophila melanogaster with 20 samples.

Results

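The genes described here are 6 *Drosophila* genes known from the nervous system for cell contact, the extracellular matrix or the synapse: *Lac*, *CadN2*, *CadN*, *Kal1*, *Syn1* and *sff*. They were chosen by name from earlier results of these data, as genes whose counts seemed to differ between GAF-depleted and Mi-2-depleted cells. All 6 were found among the 17659 genes of the count table, and all 6 passed the filter on low counts that 7826 genes passed. *Syn1* and *Kal1*, with at most 9 counts in a library of GAF-depleted cells, passed only through their counts in Mi-2-depleted cells. Since the difference between these knockdowns chose the 6 genes, their own values in that contrast are given as a description, with no test.

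neuRNA-seq, in which newly made RNA takes up the uridine analog EU and is then captured and sequenced, was performed in Kc167 cells, an established female line from *Drosophila* embryos. Cells received dsRNA against GAF (the GAGA factor, a DNA-binding protein encoded by *Trl*; replicates 2 and 3) or against the chromatin remodeler Mi-2 (replicates 1 and 2), and no other treatment is given for them. The libraries are named below as GAF r2, GAF r3, Mi-2 r1 and Mi-2 r2, and runs of 4 counts follow this order. Every library came from this single cell line, GAF replicate 1 and a mock treatment were not analysed here, and the labels do not say whether libraries of the knockdowns were prepared together. No value below therefore says which knockdown moved a gene. The values are raw counts per gene, given also as CPM, the count scaled to a common library total after TMM normalization.

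*Lac* encodes Lachesin, a surface protein with immunoglobulin domains that belongs to the septate junction, the barrier junction of insect epithelia and of the glia around the nervous system. *CadN* encodes N-cadherin, which holds like cells together and guides axons to their targets, and *CadN2* encodes its shorter paralog. *Kal1* encodes the fly relative of human anosmin, a secreted matrix protein named after Kallmann syndrome. *Syn1*, syntrophin-like 1, encodes a scaffold protein of the dystrophin complex, which links the cell cortex to the matrix. *sff*, sugar-free frosting, encodes a protein kinase related to the SAD kinases of synapses, with a role in the glycosylation of the neural surface. *Syn1* and *sff* thus encode proteins inside the cell rather than adhesion molecules.

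The libraries held between 3966515 and 12563919 counts. Where a gene was not detected, 3 counts were taken as the limit, between 0.236 and 0.755 CPM, for counting error only. Of 10 markers of hemocytes, the blood cell type that Kc167 cells resemble, 9 passed the filter, and their summed level was between 5810 and 5980 CPM in the GAF knockdown and between 5250 and 5530 CPM in the Mi-2 knockdown. Of these 9, 3 were called, all higher in the GAF knockdown, beside 3.40% called higher of all genes tested. They were *Pxn* (log2 fold change 0.95, adjusted p = 1.98e-04 by edgeR), *Col4a1* (0.95, adjusted p = 0.0496 by edgeR) and *vkg* (1.64, adjusted p = 0.0148 by edgeR), which encode matrix proteins. The other tested hemocyte markers were not called and ran from -0.38 for *crq* to 2.64 for *eater*. *NimC1*, with 0, 6, 0 and 2 counts, did not pass the filter. Of 5 neuron markers, 3 passed the filter and 0 were called by edgeR, with summed levels from 112 to 140 CPM and from 131 to 168 CPM. Of these, *elav* (446, 633, 312 and 493 counts) and *futsch* (403, 753, 204 and 423 counts) were well counted in every library. *Syx1A* was at 0 in all 4 libraries, and so were the glial markers *repo* and *gcm*. Of the 3 glial markers only *moody* was counted, with 26, 110, 57 and 72 counts or 6.43 and 13.7 CPM in the GAF and Mi-2 knockdowns (adjusted p = 0.249 by edgeR). Of 3 muscle markers, 2 passed the filter and 0 were called, with summed levels from 376 to 404 CPM and from 394 to 407 CPM. Of 3 germ line markers, 1 passed the filter and was not called. The part of these markers in the values below was not tested. The targeted gene *Mi-2* had 433 CPM in the GAF knockdown and 305 CPM in the Mi-2 knockdown (log2 fold change 0.50, adjusted p = 0.0109 by edgeR), while *Trl* (8.90 and 12.8 CPM) was not called (adjusted p = 0.566 by edgeR). *Mi-2* was not called without GAF r2 (adjusted p = 0.146 by edgeR) or without GAF r3 (adjusted p = 0.184 by edgeR), and the log2 fold change of *Trl* ran from -0.88 to -0.24 with 1 library omitted.

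Of the 6 genes, 5 had a lower nascent RNA level in the GAF knockdown than in the Mi-2 knockdown, by between 2.30-fold for *CadN2* and 57.6-fold for *Kal1*, with *Syn1* at 0 in the GAF knockdown. In these bulk libraries, fewer cells that transcribe a gene and less RNA per cell cannot be told apart. The libraries of *CadN* overlapped, and on this point the data go against a description of the 6 as genes that differ. For the other 5 both GAF libraries lay below both Mi-2 libraries, which was also true of 25.9% of all genes tested. Since this contrast chose the genes, nothing is read from that comparison.

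**Figure D1:**
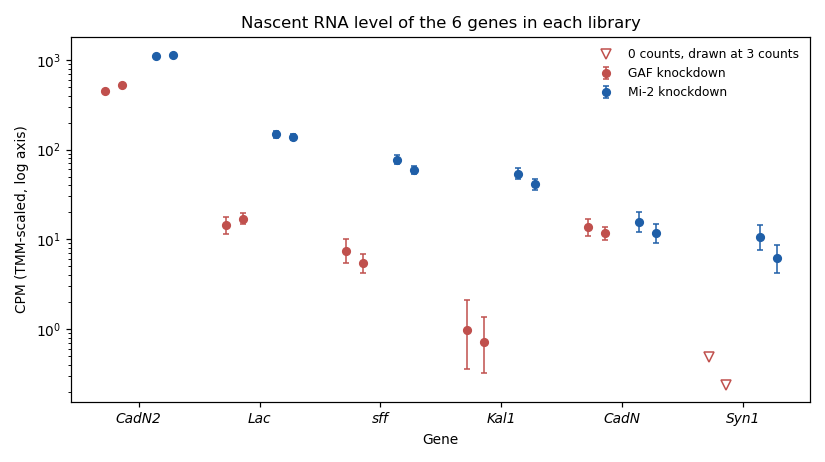
Level of the 6 genes in CPM (vertical log axis) in each library; red points are the GAF knockdown replicates 2 and 3, blue points the Mi-2 knockdown replicates 1 and 2, and bars are exact 95% Poisson intervals, which cover counting error only. Open triangles mark *Syn1* with 0 counts, drawn at the level of 3 counts. The red and blue points overlap for *CadN*, with 12.7 and 13.7 CPM on average, and are apart for the other 5.

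Among the surface proteins, *Lac* (FBgn0010238) lies on the plus strand of chromosome 2R of dm6 from 12453190 to 12465630. Reads on it numbered 89 (14.4 CPM) in GAF r2, 216 (17.0 CPM) in GAF r3, 588 (148 CPM) in Mi-2 r1 and 767 (138 CPM) in Mi-2 r2. From a mean of 15.7 ± 1.80 CPM (SD, n = 2) after GAF depletion against 143 ± 6.95 CPM (SD, n = 2) after Mi-2 depletion, the log2 fold change was -3.18 (standard error 0.179). Every Mi-2 library lay between 8.15-fold and 10.3-fold above every GAF library.

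*CadN2* (FBgn0262018) is a minus-strand gene of 2L, between 17786971 and 17875247. It was by far the most counted of the 6, with 2756 counts (446 CPM) in GAF r2, 6732 (529 CPM) in GAF r3, 4352 (1096 CPM) in Mi-2 r1 and 6343 (1143 CPM) in Mi-2 r2. Per knockdown the mean was 488 ± 58.1 CPM and 1119 ± 33.4 CPM (SD, n = 2 each), a log2 fold change of -1.20 (standard error 0.0947). Its difference was the smallest of the 5, with each Mi-2 library between 2.07-fold and 2.56-fold above each GAF library. The gene held between 78.2% and 93.8% of the counts of the 6 genes in a library.

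*CadN* (FBgn0015609) is the neighbour of *CadN2* on the same strand, from 17647053 to 17778340, and the gap of 8630 bp between them holds 0 other counted genes. It was counted 85 times (13.8 CPM) in GAF r2, 148 times (11.6 CPM) in GAF r3, 62 times (15.6 CPM) in Mi-2 r1 and 65 times (11.7 CPM) in Mi-2 r2. With means of 12.7 ± 1.52 CPM and 13.7 ± 2.76 CPM (SD, n = 2 each), the libraries of the knockdowns overlapped, and the log2 fold change of -0.11 was smaller than its standard error of 0.366. It was 0.11 without Mi-2 r1 and -0.29 without Mi-2 r2, so its sign rests on single libraries. Per kb of gene, the level of *CadN2* was 48.6 times that of *CadN* in GAF r2, 68.2 times in GAF r3, 105 times in Mi-2 r1 and 146 times in Mi-2 r2. Adjoining on 1 strand, the genes of this pair were thus far apart in level in every library.

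In the matrix, *Kal1* (FBgn0039155), on the plus strand of chromosome 3R from 24141395 to 24147490, was hardly seen after GAF depletion, with 6 counts (0.972 CPM) in GAF r2 and 9 (0.707 CPM) in GAF r3. It had 214 counts (53.9 CPM) in Mi-2 r1 and 227 (40.9 CPM) in Mi-2 r2. Mean levels were 0.839 ± 0.188 CPM and 47.4 ± 9.18 CPM (SD, n = 2 each), a log2 fold change of -5.85 (standard error 0.382). The few counts in the GAF knockdown set the precision: the exact 95% Poisson interval was 0.357 to 2.12 CPM in GAF r2 and 0.323 to 1.34 CPM in GAF r3. The lowest interval of a Mi-2 library began at 35.8 CPM. *Kal1* was thus close to the limit of detection in the GAF knockdown and well above it in the Mi-2 knockdown.

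Among the intracellular proteins, *Syn1* (FBgn0037130), a minus-strand gene of 3L between 21745359 and 21770534, had 0 counts in both GAF knockdown libraries. It had 42 counts (10.6 CPM) in Mi-2 r1 and 34 (6.13 CPM) in Mi-2 r2, a mean of 8.35 ± 3.15 CPM (SD, n = 2). Taking 3 counts in each GAF library as the limit, the Mi-2 mean of *Syn1* was 23.2-fold above it. This bound holds no counting error of the Mi-2 libraries. Omitting GAF r2, the shallower GAF library, moved this bound to 35.5-fold, and omitting Mi-2 r1 moved it to 17.0-fold. Its level was set by few counts in every library, and it was detected in both Mi-2 libraries.

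*sff* (FBgn0036544) lies on the same strand of 3L, from 15900156 to 15924861. Its counts were 46 (7.45 CPM) in GAF r2, 69 (5.42 CPM) in GAF r3, 307 (77.3 CPM) in Mi-2 r1 and 331 (59.6 CPM) in Mi-2 r2. On average this was 6.44 ± 1.44 CPM and 68.5 ± 12.5 CPM (SD, n = 2 each), a log2 fold change of -3.44 (standard error 0.280). Each Mi-2 library was between 8.005-fold and 14.3-fold above each GAF library.

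**Figure D2:**
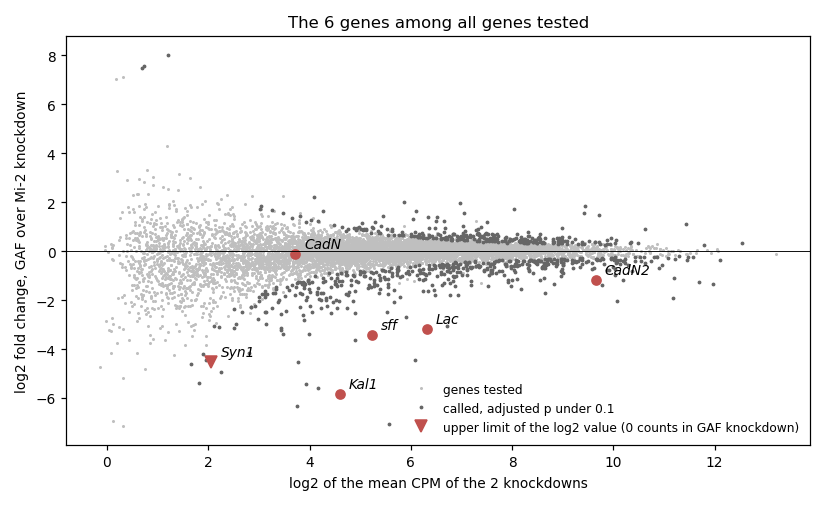
The log2 fold change of the GAF over the Mi-2 knockdown (vertical axis) against the log2 of the mean CPM of both knockdowns (horizontal axis) for the 7826 genes tested; dark grey points were called at an adjusted p under 0.1, and red points are the 6 genes. *Kal1*, *sff*, *Lac* and *CadN2* lie below the main body of genes at -5.85, -3.44, -3.18 and -1.20, *CadN* lies in it at -0.11, and *Syn1* is drawn at the limit set by 3 counts. This contrast chose the 6 genes, so nothing is read from their place.

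To compare the genes with each other, the CPM was divided by the length of the gene body in kb that lies under no other gene of the same strand. In the GAF knockdown the order of this level was *CadN2* (5.57 CPM per kb), *Lac* (1.26), *sff* (0.261), *Kal1* (0.138) and *CadN* (0.0967), with *Syn1* at 0. Neighbours in this order did not overlap between libraries, but the counting intervals of *Kal1* (from 0.0530 to 0.347 CPM per kb over both libraries) covered the values of *CadN* and of *sff*, so the order of these 3 is not settled at this depth. In the Mi-2 knockdown the order was *CadN2* (12.8 CPM per kb), *Lac* (11.5), *Kal1* (7.78), *sff* (2.77), *Syn1* (0.332) and *CadN* (0.104), and the libraries of neighbours again did not overlap, although the counting interval of *Lac* in Mi-2 r1 (10.96 to 12.9 CPM per kb) covered the value of *CadN2* there (12.5). *CadN* was thus the lowest of the 6 per length in the Mi-2 knockdown although it was counted in every library, and *Lac* stood close to *CadN2* there.

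The 6 genes were long. *CadN* spans 131288 bp and *CadN2* 88277 bp, and with *Syn1* (25176 bp), *sff* (24706 bp) and *Lac* (12441 bp) they belong to the longest of 4 equal length classes of the genes tested, while *Kal1* (6096 bp) lies in the next. No other counted gene of the same strand covers any part of them except for *CadN2*, of which 99.2% is free, so that the counting of reads on the sense strand gives nearly all reads of each gene body to that gene. Of the 1927 genes in the longest class, 13.6% were called lower and 4.46% higher in the GAF knockdown and their median log2 fold change was -0.08, beside 3.48% lower and 2.99% higher of the 5782 genes in the other classes, which were set after the data had been seen. The part of gene length in the values of the 6 genes was not tested.

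None of the nearest tested genes around the 5 that were lower in the GAF knockdown was called by edgeR, and their log2 fold changes lay between -1.30 and 0.62. *Dyb*, which encodes dystrobrevin, another member of the dystrophin complex, lies 273 bp upstream of *Lac* on the same strand and had 27.6 ± 1.73 and 39.0 ± 2.16 CPM (SD, n = 2 each) in the GAF and the Mi-2 knockdown (log2 fold change -0.50, adjusted p = 0.252 by edgeR). On the other side *dgt5*, a subunit of augmin in the mitotic spindle, ends 47 bp from *Lac* on the opposite strand, with 67.4 and 59.9 CPM (adjusted p = 0.697 by edgeR). *Npc2f*, of the sterol-binding Npc2 family, lies 458 bp upstream of *Kal1* and had 29, 54, 52 and 50 counts, or 4.47 ± 0.324 and 11.1 ± 2.89 CPM (SD, n = 2 each). Its log2 fold change of -1.30 was the lowest among these neighbours. For *Npc2f* and *Dyb* both GAF libraries lay below both Mi-2 libraries, which was also true of 25.9% of all genes tested. The same held for *lncRNA:CR43420* and *Dhc36C*, described below. Neither *Npc2f* nor *Dyb* was called, *Npc2f* with an adjusted p = 0.205 by edgeR. *p38c*, a stress kinase gene on the other side, had 6.87 and 5.19 CPM (adjusted p = 0.798 by edgeR), and *Slimp*, which overlaps *Kal1* on the opposite strand, had 24.98 and 25.64 CPM (adjusted p = 0.959 by edgeR).

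*Pka-C3*, a protein kinase gene 943 bp upstream of *sff* on the same strand, had 50, 69, 0 and 47 counts. Its log2 fold change of 0.62 (adjusted p = 0.823 by edgeR) rests on that 0 and was -0.34 without Mi-2 r1, while without Mi-2 r2 it was 8.68 and *Pka-C3* was called higher. On the other side of *sff*, *CG15715* came to -0.40 on the log2 scale (adjusted p = 0.512 by edgeR). The neighbours of *Syn1* were farther away. *Polr2H*, a subunit of RNA polymerase II at 15664 bp, and *CycH*, a cyclin at 51462 bp, had log2 fold changes of 0.0017 (adjusted p = 0.998 by edgeR) and -0.14 (adjusted p = 0.835 by edgeR). Upstream of *CadN2*, *lncRNA:CR43420* at 18564 bp was not called (-0.58, adjusted p = 0.773 by edgeR). Beyond *CadN* the nearest tested gene was *Dhc36C*, a dynein heavy chain gene 121537 bp away with 1.28 and 2.27 CPM (adjusted p = 0.751 by edgeR).

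Within 100 kb on each side of the 6 genes, a distance set after the data had been seen, 92 other genes were tested. None of them was called lower by edgeR with all 4 libraries, beside 6.06% of all genes tested. Of the 92, 7 were called higher, beside 3.40% of all genes tested. Without adjustment, 3 (3.26%) had a lower and 12 a higher level at p under 0.05 by edgeR, beside 11.2% and 8.92% of all genes tested, and DESeq2 called 0 lower and 8 (8.70%) higher, beside 6.93% and 4.34%. Without Mi-2 r1, and likewise without Mi-2 r2, edgeR called 2 of them lower. The higher genes were *Nup54* near *Lac*, *Nopp140* and *eIF2A* near *Syn1*, and *Hsp68*, *SMC1*, *Tsc1* and *mask* near *Kal1*. Without GAF r2, or without GAF r3, only *Hsp68* was called, and without Mi-2 r2 there were 18 higher calls. Of 23 counted genes within 100 kb of *CadN* only *CadN2* passed the filter.

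**Figure D3:**
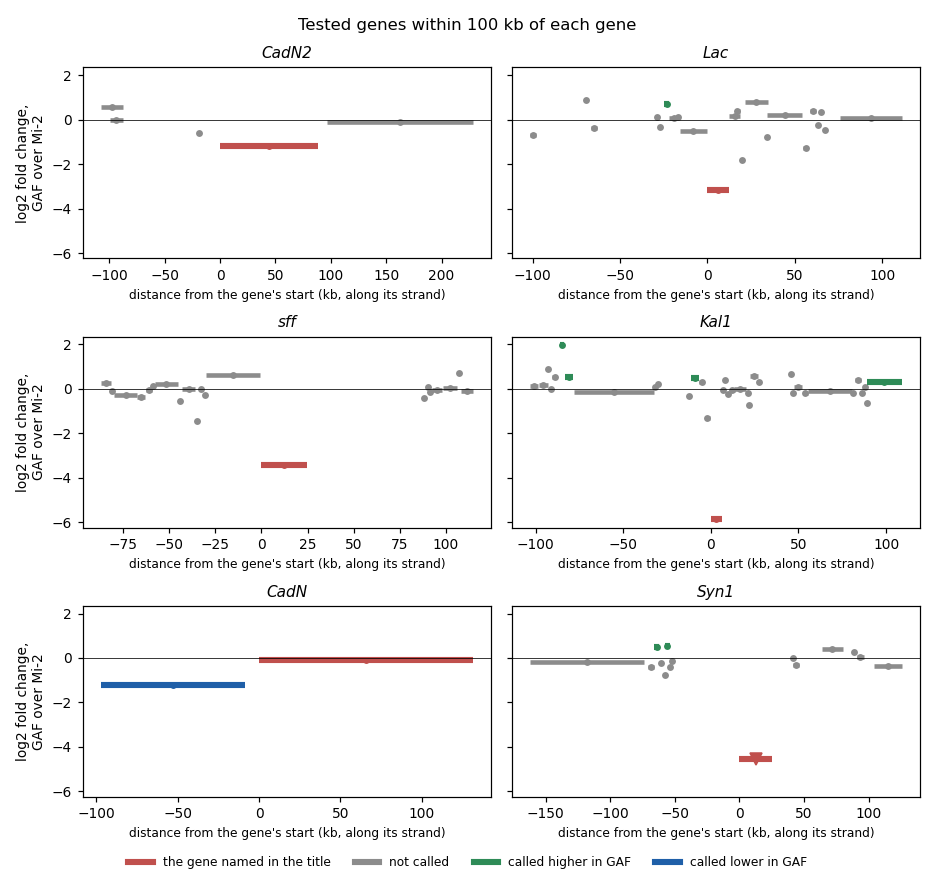
Log2 fold change of the GAF over the Mi-2 knockdown (vertical axis) for tested genes within 100 kb of each of the 6 genes, against the distance in kb from the start of that gene along its strand (horizontal axis); each bar spans 1 gene, red for the gene in the panel title. Around *Lac*, *sff*, *Kal1* and *Syn1* the red bar lies below every neighbour, and in the *CadN* panel the blue bar at -1.20 is *CadN2*. This contrast chose the 6 genes, so nothing is read from the place of the red bars.

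Over the 4 libraries, the patterns of the 6 genes were compared by the Euclidean distance between log2(CPM + 0.5) profiles, each centred on its own mean. This is a description over 4 libraries, and a small distance says nothing of shared function or control. The profiles hold the difference between the knockdowns that chose the 6 genes, so a small distance partly restates a similar log2 fold change. *Lac* and *sff* were the closest pair of the 6, at a distance of 0.527. Among the tested genes with a symbol, only *Mal-A5* and *CG44325* came nearer to *sff*. *Mal-A5*, a maltase gene, was at 0.319 from *sff* and had 15, 20, 98 and 89 counts. *CG44325*, with 157, 263, 785 and 991 counts, was near to both *sff* (0.361) and *Lac* (0.397). Nearest to *Lac* was *dob*, a lipase-like gene (0.332), and *Acsf2*, an acyl-CoA synthetase gene, followed (0.419).

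The 3 genes nearest to *Kal1* were found on a profile set in the GAF libraries by only 6 and 9 counts. *yin*, a peptide transporter gene, was at 0.389, with 6, 7, 169 and 156 counts, and the others were at 0.780 (FBgn0267523, a pseudogene that could share reads with ribosomal RNA genes, so its counts are uncertain) and 0.799 (*CG12869*). *CG12869* was also near to *Syn1* (0.782), after *ATP8B*, a phospholipid flippase gene (0.525), and *CG7860* (0.752). Since *Syn1* had 0 counts in both GAF libraries, its profile there was set by the added 0.5 alone, and these distances depend on it. For *CadN2*, whose difference was smaller, the distances were shorter: *ry*, which encodes xanthine dehydrogenase, at 0.111, *CG7102* at 0.115 and *CG12177* at 0.121. *CadN* lay closest to genes whose libraries also overlapped between the knockdowns, *ATPsynG*, a subunit of ATP synthase (0.0334), *CR43361* (0.0383) and *sll*, a sulfate donor transporter (0.0570).

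Genes related to the 6 were taken from 7 lists, chosen with earlier results of these data known, so the shares below are a description. The lists hold 141 other genes. Of these, 135 had a row and 94 passed the filter. In the test across all 7826 genes, 13 of the 94 (13.8%) were called lower and 2 (2.13%) higher in the GAF knockdown, beside 6.06% and 3.40% of all genes tested. Their median log2 fold change was -0.18, beside -0.0024 over all genes tested. At p under 0.05 without adjustment, 23 (24.5%) were lower and 3 (3.19%) higher, beside 11.2% and 8.92% of all genes tested. DESeq2 called 16 (17.0%) lower and 2 (2.13%) higher, beside 6.93% and 4.34%. The lists hold long genes, 73 of the 94 in the longest length class. Of those 73, 11 (15.1%) were called lower, beside 13.6% of all genes in that class. Of the other 21, 2 (9.52%) were called lower, beside 3.48%. The calls depended on the GAF libraries: without GAF r2, and likewise without GAF r3, only *Nrg*, *ImpL2*, *brp* and *dlp* of the 13 and none of the 2 were called, although all 15 kept their direction. All 15 were called without either Mi-2 library.

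Cadherins and catenins, the family of *CadN* and *CadN2*, had 9 tested genes and a median log2 fold change of 0.0061. Of these 9, 1 (11.1%) was called, beside 6.06% called lower of all genes tested. The called gene was *kug*, a giant atypical cadherin, which was lower in the GAF knockdown with 460 ± 26.9 and 596 ± 24.0 CPM (SD, n = 2 each) in the GAF and Mi-2 knockdowns (log2 fold change -0.38, adjusted p = 0.0358 by edgeR). Without a library, its adjusted p by edgeR ran up to 0.445, with a log2 fold change between -0.45 and -0.31. *shg*, which encodes E-cadherin and is named here after its values were seen, had 53.2 and 33.1 CPM and was not called (0.67, adjusted p = 0.183 by edgeR). The tested relatives of *CadN2* lay between -0.38 and 0.67, beside its own -1.20. Since this contrast chose *CadN2*, nothing is read from that comparison.

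Among genes of the immunoglobulin superfamily, to which *Lac* belongs, 5 of 22 tested (22.7%) were called, all lower, with a median log2 fold change of -0.38. The share called lower was 6.06% over all genes tested and 13.6% in the longest length class. *Nrg*, which encodes neuroglian, an adhesion protein of axons and of the septate junction, had 137, 220, 349 and 424 counts, or 19.7 ± 3.48 and 82.2 ± 8.11 CPM (SD, n = 2 each; log2 fold change -2.07, adjusted p = 4.80e-04 by edgeR). *Fas2*, a homophilic adhesion protein of axon bundles, had 50, 92, 86 and 124 counts, or 7.66 ± 0.619 and 22.0 ± 0.489 CPM (SD, n = 2 each), a log2 fold change of -1.53 (adjusted p = 0.0274 by edgeR). The others were smaller: *ImpL2*, a secreted binding protein of insulin-like peptides (-0.64, adjusted p = 0.00113 by edgeR), *kek5* (-0.41, adjusted p = 0.0336 by edgeR) and, outside the rule for named genes, *kek1* (-0.40, adjusted p = 0.0198 by edgeR), the last with leucine-rich repeats and a link to EGF receptor signaling. With 1 library omitted, the adjusted p by edgeR ran up to 0.0276 for *Nrg* and 0.0407 for *ImpL2*, but up to 0.213 for *Fas2*, 0.429 for *kek5* and 0.238 for *kek1*. *Nrg* was the only called gene of the 19 tested septate junction genes (5.26%), whose median log2 fold change was -0.11. Beside them *Lac* stood at -3.18, but this contrast chose *Lac*, so nothing is read from that.

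Of the list of genes of the dystrophin-syntrophin complex and genes linked to it, 6 other than *Syn1* were tested, with a median log2 fold change of -0.35. Of these 6, 1 (16.7%) was called lower and 1 (16.7%) higher, beside 6.06% and 3.40% of all genes tested. *Dys*, which encodes dystrophin, was called lower (279.8 ± 27.95 and 366.8 ± 28.73 CPM, SD, n = 2 each; log2 fold change -0.39, adjusted p = 0.0746 by edgeR) and *LanA*, a laminin subunit, higher (3839 ± 80.2 and 3248 ± 82.3 CPM, SD, n = 2 each; 0.24, adjusted p = 0.0336 by edgeR). Neither was called without GAF r2 or without GAF r3, with adjusted p by edgeR up to 0.404 and 0.353. *Syn2*, the paralog of *Syn1* and named after its values were seen, had 0, 4, 0 and 3 counts, too few for the filter.

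Among heparan sulfate proteoglycan and FGF genes, chosen because anosmin binds heparan sulfate and FGF receptors in vertebrates, 14 were tested, with a median log2 fold change of -0.08. Of these 14, 2 (14.3%) were called lower and 1 (7.14%) higher, beside 6.06% and 3.40% of all genes tested. The glypican genes went in opposite directions. *dlp* was called lower, with 359 ± 29.4 and 673 ± 16.4 CPM (SD, n = 2 each) in the GAF and Mi-2 knockdowns (log2 fold change -0.91, adjusted p = 4.11e-04 by edgeR), and *dally* was called higher, with 364 ± 8.89 and 264 ± 4.93 CPM (SD, n = 2 each; 0.46, adjusted p = 0.0215 by edgeR). *sotv*, an enzyme that extends heparan sulfate chains, was called lower (-0.96, adjusted p = 0.0315 by edgeR). With 1 library omitted, the adjusted p by edgeR ran up to 0.0165 for *dlp*, 0.255 for *dally* and 0.278 for *sotv*.

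Of 10 tested kinase and glycosylation genes around *sff*, only *Tollo* was called. It encodes Toll-8, a receptor with a part in neural glycosylation, and had 82.2 ± 3.22 and 128 ± 15.9 CPM (SD, n = 2 each), a log2 fold change of -0.63 (adjusted p = 0.0367 by edgeR, up to 0.381 with 1 library omitted). Of 16 tested synapse and neuron genes, 3 (18.8%) were called, all lower, with a median of -0.30. In the longest length class, 13.6% of genes were called lower. *brp*, the active zone protein Bruchpilot, had 664, 1195, 988 and 1568 counts, or 101 ± 9.71 and 266 ± 23.9 CPM (SD, n = 2 each; log2 fold change -1.40, adjusted p = 2.65e-04 by edgeR). The teneurin genes *Ten-a* (-1.28, adjusted p = 0.0592 by edgeR) and *Ten-m* (-0.35, adjusted p = 0.0497 by edgeR), whose products match synaptic partners, were also lower, with adjusted p by edgeR up to 0.389 and 0.438 when 1 library was omitted, against at most 0.0207 for *brp*.

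**Figure D4:**
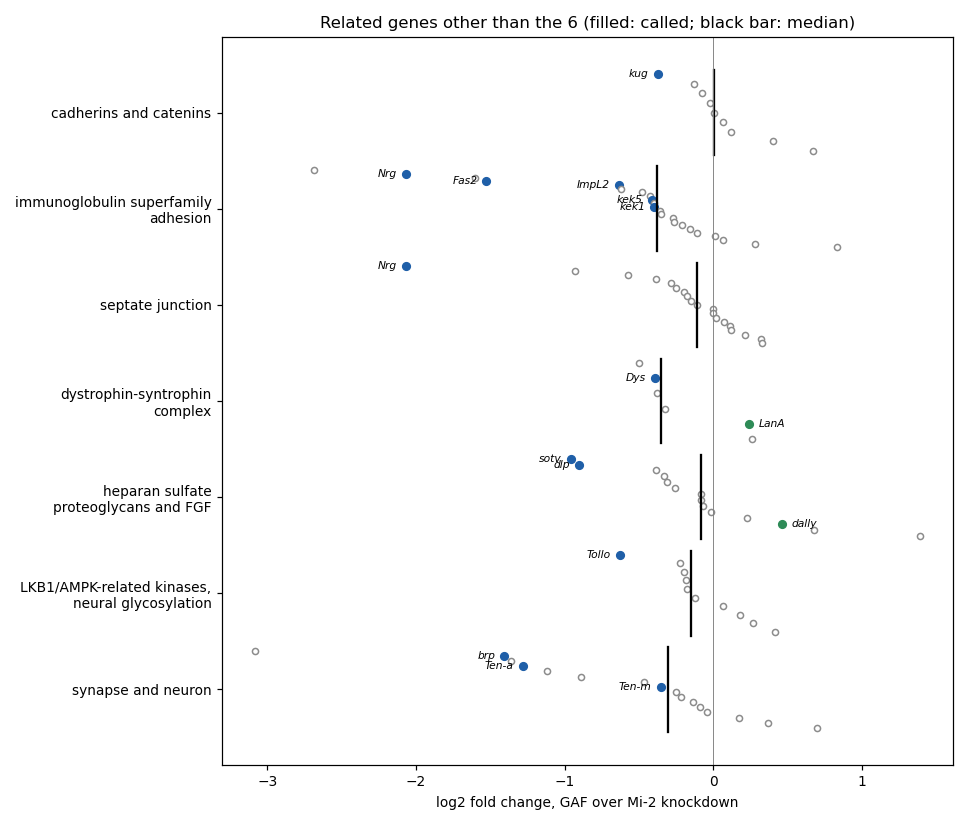
Log2 fold change of the GAF over the Mi-2 knockdown (horizontal axis) for the tested genes of the 7 lists other than the 6 genes, 1 row per list; filled blue points were called lower and filled green points higher at an adjusted p under 0.1, open points were not called, and black bars are list medians. Medians lie between -0.38 and 0.0061, and the lowest called gene is *Nrg* at -2.07.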

How the data were processed

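neuRNA-seq libraries of Kc167 cells were analysed. The study's methods describe neuRNA-seq of other knockdowns. Per these and the labels, the authors trimmed reads with cutadapt 1.10, mapped them to dm6 with HISAT2 2.0.4 and counted sense-strand reads over whole gene bodies with featureCounts 1.5.0-p3. The deposited values are raw counts. Of 20 samples, 4 were matched to a column by label. Another 6 columns, named as mock and Dcr-2 knockdown, match no sample's label and were not used, so comparisons with mock were not made. The second deposited table is identical.

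Counts were filtered (filterByExpr), TMM-scaled and compared with edgeR 4.0.16 (glmQLFit, glmQLFTest; R 4.3.3), with Benjamini-Hochberg adjustment over 7826 genes and a call at adjusted p under 0.1. Standard errors are the log2 fold change over the root of F. DESeq2 1.42.0 was the alternative. The code was tested on simulated data. The 2 libraries of each knockdown differed beyond counting noise (chi-square per degree of freedom 9.59 and 9.63) and were kept apart. Labels do not say whether they are separate cultures, so p-values measure the spread between libraries. Exact permutation of 2 against 2 cannot go below p = 0.333, so none was run.

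The 6 genes and the lists were chosen with earlier results of these data known. Named genes are the 6, *Trl*, *Mi-2*, up to 4 called genes per list with the largest change, the nearest tested gene on each side, and 3 genes nearest in pattern. Symbols and positions are from Ensembl release 115 (dm6 coordinates), later than the FlyBase release counted. Overlapping genes were added after the data were seen. Promoter motifs, also planned, were not analysed.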

Additional observations from a re-analysis of the deposited data

How the results depend on the processing

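Depth limits *Kal1* and *Syn1* most, with at most 9 counts in a GAF library. No paired analysis was possible because the libraries used share only replicate number 2 between the knockdowns. DESeq2, upper-quartile scaling, library size alone and no filter kept the direction of the 5 genes other than *Syn1*, each moving by less than its replicate spread. The bound for *Syn1* was recomputed only under the scalings (23.7 and 22.7). These settings kept the 13 lower and 2 higher calls among listed genes. With no filter, 494 genes in place of 266 were called higher and 557 in place of 474 lower over all genes, and 4 in place of 2 among listed genes. At an adjusted p under 0.05, 128 were called higher and 321 lower over all genes.

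Over fits that omit 1 library, the genes called higher ranged from 32 to 998 and lower from 154 to 818 over all genes, and from 0 to 8 and 4 to 20 among listed genes. The fewest followed the loss of a GAF library and the most the loss of Mi-2 r2 (for listed genes called lower, of Mi-2 r1), and the cause was not tested. The log2 fold change ranged from -3.32 to -3.07 for *Lac*, -1.34 to -1.08 for *CadN2*, -0.29 to 0.11 for *CadN*, -6.03 to -5.58 for *Kal1* and -3.65 to -3.20 for *sff*, and the bound for *Syn1* from 17.0 to 35.5. Among the neighbours, *Polr2H* changed sign with upper-quartile scaling (-0.0257). Sign also changed in the fits that omit 1 library, where the values ran from -0.18 to 0.17 for *Polr2H*, -0.47 to 0.11 for *CycH*, -0.34 to 8.68 for *Pka-C3*, -0.10 to 0.0365 for *Slimp*, -0.0041 to 0.38 for *dgt5* and -0.0013 to 0.96 for *p38c*. None of these was called with all 4 libraries.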
